A study of Mus musculus with 8 samples.

Results

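The genes described here encode 7 members of the Nodal/Activin pathway, namely the ligand Nodal, its co-receptor Tdgf1 (Cripto), the secreted inhibitors Lefty1, Lefty2, Cer1 and Fst (follistatin), and the nuclear co-repressor Skil (SnoN). They were taken by symbol, matched to the Ensembl gene identifiers of the deposited files, and make up 7 of the 52550 genes listed. Messenger RNA of mouse embryonic stem cells (ESCs) at passage 3 was sequenced on an Illumina instrument in 4 groups of 2 libraries, 8 libraries in all. The groups were control ESCs and Dax1KO ESCs in 2i/LIF, which is N2B27 medium with 1 μM PD0325901 (an inhibitor of MEK), 3 μM CHIR99021 (an inhibitor of GSK3) and 10 ng/ml LIF, and control ESCs and Dax1KO ESCs in LIF/serum, which is DMEM with 15% FBS and 10 ng/ml LIF. In Dax1KO ESCs the nuclear receptor gene Dax1 (Nr0b1) was edited with CRISPR/Cas9. The study describes Dax1KO colonies picked in 2i/LIF, of which a single one served its functional experiments, and none recovered in LIF/serum, where Dax1KO cells were studied after transfer from 2i/LIF. Which colony was sequenced is not given in the sources used here. The comparisons ask whether the loss of Dax1 changed these genes in each medium, whether the change differed between media, and how the media differed within each genotype.

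Nodal and the Activins are secreted ligands of the TGF-beta family that bind type I and type II serine/threonine kinase receptors, and Nodal in addition needs an EGF-CFC co-receptor such as Tdgf1. The activated receptors phosphorylate Smad2 and Smad3, which enter the nucleus with Smad4 and act on chromatin with partners such as Foxh1. Nodal, Lefty1 and Lefty2 are themselves targets of this signal in the early mouse embryo, where the Lefty proteins feed back on Nodal, and the pathway patterns the epiblast and induces mesendoderm.

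Dax1 was counted at 456 and 300 in control cells in 2i/LIF and at 5095 and 4689 in control cells in LIF/serum. Dax1KO cells had counts of 0 and 0 in 2i/LIF and of 14 and 6 in LIF/serum. Total counts lay between 35911384 and 37286251 per library. The summed normalized count of 8 markers of undifferentiated ESCs lay between 167503 and 217317 in all libraries. That of 8 primitive endoderm markers lay between 4701 and 5238 in control and between 3514 and 4680 in Dax1KO cells in 2i/LIF. In LIF/serum it lay between 15225 and 25922 in control cells and between 49617 and 60800 in Dax1KO cells. Nothing in the labels says whether the 2 libraries of a group came from separate cultures, so the p-values measure the spread between these libraries, which may be technical. In bulk RNA, fewer cells of a type and less RNA per cell cannot be told apart.

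Of the 7 genes, 6 passed the filter on low counts and entered the test over 20749 genes. Values given as normalized counts are counts scaled to a common library size. Levels of different genes were compared only per length, as CPM/kb (counts per kilobase of exon after scaling by library size). Fold changes with their standard errors (SE) and adjusted p-values come from the quasi-likelihood F test of edgeR, adjusted over all genes tested by the Benjamini-Hochberg method. A gene was called when its adjusted p was at most 0.05 and its fold change at least 1.2, and a difference between media in the effect of Dax1KO was called by the adjusted p alone.

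The Lefty genes lie side by side on the plus strand of chromosome 1 of GRCm38, Lefty2 (ENSMUSG00000066652.5) at chr1:180893108-180899103 and Lefty1 (ENSMUSG00000038793.8) at chr1:180935022-180938400. Since reads from near-identical copies can be exchanged in counting, their sequences were compared first. Both coding sequences have 1104 bases in 4 coding exons of 250, 247, 246 and 361 bases, and they align without gaps at 1014 identical positions, an identity of 91.8%. The longest identical run has 140 bases. Of all 100-base windows of the longest transcript, 4.80% in Lefty1 and 3.08% in Lefty2 also occur in the other gene. Over matches of at least 95% identity, 17.7% of the Lefty1 transcript and 18.1% of the Lefty2 transcript match the other gene. Counts of either gene can therefore hold reads of the other, which weighs most where the other gene is far more abundant. The stretch that separates them best is shown here from the GENCODE transcripts, coding positions 35 to 124, counted from 1 at the start codon and lying in the first coding exon. The 27 bases that differ are in capitals.
Lefty1: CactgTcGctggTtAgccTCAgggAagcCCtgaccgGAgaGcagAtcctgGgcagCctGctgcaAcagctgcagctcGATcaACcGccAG
Lefty2: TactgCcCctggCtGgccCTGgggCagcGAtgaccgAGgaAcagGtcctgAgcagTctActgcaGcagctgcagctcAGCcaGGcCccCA

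Nodal (ENSMUSG00000037171.6, chr10:61417972-61425338, plus strand) is the ligand of the group. Its normalized counts were 2178 and 2222 in control cells in 2i/LIF, 1558 and 1656 in Dax1KO cells in 2i/LIF, 3514 and 3356 in control cells in LIF/serum, and 3455 and 3086 in Dax1KO cells in LIF/serum. All LIF/serum libraries stood above all 2i/LIF libraries, and in 2i/LIF both Dax1KO libraries stood below both control libraries. Nodal was lower in 2i/LIF than in LIF/serum both in control cells (log2 fold change -0.64, SE 0.11, adjusted p = 0.00318) and in Dax1KO cells (-1.03, SE 0.11, adjusted p = 0.0005). In 2i/LIF the level in Dax1KO cells was 0.731 times that in control cells (log2 fold change -0.45, SE 0.11), which missed the threshold with an adjusted p of 0.0752. With DESeq2 in place of edgeR the same difference passed (adjusted p = 0.0187), and over all alternatives its adjusted p ran from 0.0187 to 0.342. In LIF/serum the log2 fold change of Dax1KO over control was -0.07, with a 95% interval from -0.33 to 0.19.

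Tdgf1 (ENSMUSG00000032494.12, chr9:110939603-110946158, minus strand), the GPI-linked co-receptor of Nodal, had by far the highest level of the 7 genes per length in every group. Its means were 352 ± 64.6, 469 ± 35.7, 470 ± 97.9 and 716 ± 168 CPM/kb (SD, n = 2) in control and Dax1KO cells in 2i/LIF and in control and Dax1KO cells in LIF/serum. Nodal lay between 20.9 and 44.6 on this scale. As normalized counts, Tdgf1 stood at 29532 and 38329 in control cells in 2i/LIF, at 42780 and 47646 in Dax1KO cells in 2i/LIF, at 38615 and 51958 in control cells in LIF/serum, and at 57557 and 80474 in Dax1KO cells in LIF/serum. In both media the Dax1KO libraries stood above the control libraries without overlap, yet the replicates of a group differed by up to 1.40 times and neither difference was called. The log2 fold change of Dax1KO over control was 0.41 (SE 0.21, adjusted p = 0.362) in 2i/LIF and 0.61 (SE 0.21, adjusted p = 0.0934) in LIF/serum, and the latter passed with DESeq2 (adjusted p = 0.0336). The log2 fold change of 2i/LIF over LIF/serum was -0.42 (SE 0.21, adjusted p = 0.158) in control cells and -0.61 (SE 0.21, adjusted p = 0.0639) in Dax1KO cells, where it passed in 6 of 15 alternatives, among them DESeq2 (adjusted p = 0.0166). A share of 26.5% of the Tdgf1 transcript matches the pseudogene Tdgf1-ps1 at 95% identity or more, so part of its count is uncertain.

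The 250 bases before the annotated start of Tdgf1 are shown because Tdgf1 is the most abundant of these genes and because of the 3 genes with an entry among the RefSeq promoters (Nodal, Tdgf1 and Cer1; GRCm38.p6) it alone holds the Foxh1-type motif TGTNNATT. Capitals mark its 2 matches, both on the opposite strand, from -127 to -120 and from -101 to -94 relative to the start. The motif occurs on either strand in 12.2% of 32851 promoters of 300 bases.
Tdgf1, chr9:110946159-110946408, minus strand: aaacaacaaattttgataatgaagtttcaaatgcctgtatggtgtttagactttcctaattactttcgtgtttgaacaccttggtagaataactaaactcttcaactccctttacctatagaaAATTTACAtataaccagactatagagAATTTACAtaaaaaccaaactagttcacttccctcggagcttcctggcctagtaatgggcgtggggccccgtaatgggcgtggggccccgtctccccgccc
The Smad-type motif CAGACA, searched on both strands and held by 21.0% of promoters, matched once in the Cer1 promoter and in neither of the other two. Such a match is a run of letters and says nothing of binding in these cells.

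Lefty1, a secreted antagonist of Nodal, showed the largest difference of the 7 genes in LIF/serum and between media. Its normalized counts were 130 and 165 in control cells in 2i/LIF, 98.2 and 219 in Dax1KO cells in 2i/LIF, 3525 and 4234 in control cells in LIF/serum, and 905 and 758 in Dax1KO cells in LIF/serum. The groups in LIF/serum did not overlap with each other or with 2i/LIF, while in 2i/LIF the 2 control values lay between the 2 Dax1KO values. In LIF/serum Lefty1 was 4.67-fold lower in Dax1KO than in control cells (log2 fold change -2.22, SE 0.32, adjusted p = 0.00587). This call was lost without replicate 2 of the Dax1KO libraries in LIF/serum (-2.10, adjusted p = 0.0505) and held under the other 14 alternatives. In 2i/LIF the log2 fold change was 0.10, with a 95% interval from -0.67 to 0.88 (adjusted p = 0.932). The difference between these effects was called in the test of the interaction (-2.32, SE 0.46, adjusted p = 0.0422). Its margin was small. The call was lost without a filter on low counts (adjusted p = 0.125) and in 7 of 8 fits with a library left out, with adjusted p-values from 0.0762 to 0.132, and held without replicate 1 of the Dax1KO libraries in 2i/LIF (adjusted p = 0.0305), while the estimate ran from -2.79 to -1.63. Control cells had 26.3-fold less Lefty1 in 2i/LIF than in LIF/serum (log2 fold change -4.71, SE 0.36, adjusted p = 8.20e-05) and Dax1KO cells 5.24-fold less (-2.39, SE 0.33, adjusted p = 0.00155), with a log2 fold change of -3.08 without replicate 2 of the Dax1KO libraries in 2i/LIF and of -1.92 without replicate 1. The low Lefty1 levels are uncertain, because Lefty2 was far more abundant there. If reads fell evenly along the Lefty2 transcript, those in the 100-base windows it shares with Lefty1 would amount to between 42.4% and 78.8% of the Lefty1 count in 2i/LIF, to 24.2% and 27.9% in Dax1KO cells in LIF/serum and to 7.10% and 7.40% in control cells in LIF/serum. With shared windows of 50 bases they would exceed the whole Lefty1 count in every 2i/LIF library and amount to 91.2% and 105% of it in Dax1KO cells and to 26.8% and 27.9% in control cells in LIF/serum. How the counting treated such reads is not given in the sources used here, and their part in the Lefty1 differences was not tested.

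Lefty2, the neighbouring antagonist, was at a higher level per length than Lefty1 in every library. Its normalized counts were 2086 and 4227 in control cells in 2i/LIF, 1354 and 4176 in Dax1KO cells in 2i/LIF, 8144 and 10192 in control cells in LIF/serum, and 7117 and 6862 in Dax1KO cells in LIF/serum. Every LIF/serum library was above every 2i/LIF library. In LIF/serum both Dax1KO libraries were below both control libraries, and in 2i/LIF the replicates differed by 2.03 times in control and 3.08 times in Dax1KO cells. The log2 fold change of Dax1KO over control was -0.39 (SE 0.48, adjusted p = 0.630) in LIF/serum, with a 95% interval from -1.50 to 0.72, and -0.19 (SE 0.48, adjusted p = 0.904) in 2i/LIF, with an interval from -1.31 to 0.92. These intervals are wide and allow a change of over 1.5-fold either way. Control cells had less Lefty2 in 2i/LIF than in LIF/serum (-1.54, SE 0.49, adjusted p = 0.0411), a call that was lost without a filter on low counts (adjusted p = 0.113). It was also lost without replicate 1 of the control libraries in 2i/LIF (-1.12, adjusted p = 0.189), without either replicate of the control libraries in LIF/serum (adjusted p = 0.0734 and 0.134) and without either of the Dax1KO libraries in LIF/serum (adjusted p = 0.0603 and 0.0601). Without replicate 2 of the control libraries in 2i/LIF the estimate was -2.18. In Dax1KO cells the same contrast was -1.34 (SE 0.49, adjusted p = 0.0776). It was -2.37 and passed without replicate 2 of the Dax1KO libraries in 2i/LIF (adjusted p = 0.0125), and it was -0.74 without replicate 1 (adjusted p = 0.233).

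The ratio of Lefty2 to Lefty1 per length separated the groups in LIF/serum. It was 1.56 and 1.62 in control cells and 5.30 and 6.10 in Dax1KO cells in LIF/serum, against 10.8 and 17.2 in control cells and 9.28 and 12.8 in Dax1KO cells in 2i/LIF. The Dax1KO libraries in LIF/serum thus lay between those of control cells in LIF/serum and those in 2i/LIF. This ratio was computed after the values of both genes were seen and was not tested, and the uncertainty of the low Lefty1 counts applies to it.

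**Figure D1:**
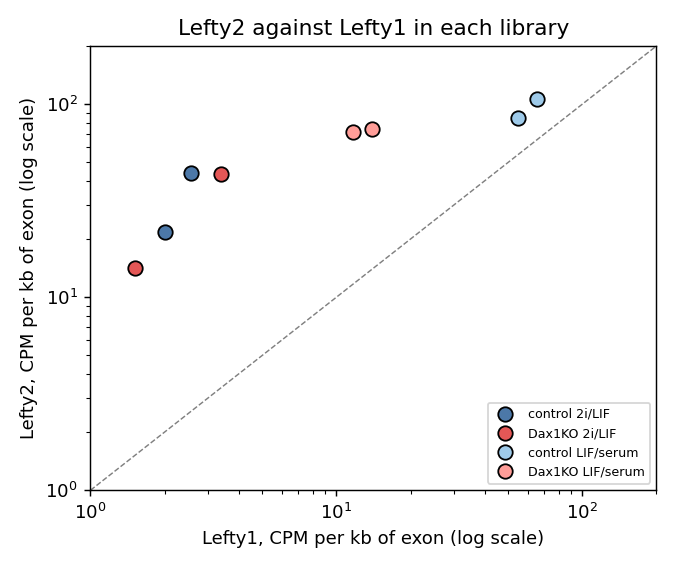
Each point is a library, with Lefty1 on the x axis and Lefty2 on the y axis, both in CPM/kb on log scales, and the dashed line marks equal levels. All 8 libraries lie above the line; in LIF/serum the Dax1KO libraries are at 71.5 and 74.2 for Lefty2 and at 11.7 and 14.0 for Lefty1, against 84.9 and 106 for Lefty2 and 54.6 and 65.6 for Lefty1 in control cells.

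Cer1 (Cerberus-like 1, ENSMUSG00000038192.5, chr4:82881751-82885148, minus strand), a secreted antagonist made by the anterior visceral endoderm of the embryo, had a count of 0 in all 8 libraries. A count of 0 allows up to 3 counts, which is between 2.87 and 3.20 normalized counts in these libraries. Cer1 did not pass the filter and was not tested, and a difference was not detectable at this depth.

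Fst (ENSMUSG00000021765.8, chr13:114452290-114458951, minus strand), which binds and neutralises Activin, was the lowest of the 6 detected genes per length, with group means from 0.347 to 1.24 CPM/kb. Its normalized counts were 270 and 150 in control cells in 2i/LIF, 47.7 and 69.4 in Dax1KO cells in 2i/LIF, 127 and 70.4 in control cells in LIF/serum, and 62.2 and 60.5 in Dax1KO cells in LIF/serum. Both control values in 2i/LIF stood above all the others, and the remaining 6 values lay between 47.7 and 127. In 2i/LIF the level in Dax1KO cells was 3.58-fold lower (log2 fold change -1.84, SE 0.40), with an adjusted p of 0.0532, just outside the threshold. This difference passed in 5 of 15 alternatives, among them DESeq2 (adjusted p = 0.00273), and its adjusted p ran to 0.268, the value with replicate 1 of the 2i/LIF Dax1KO cells left out. In LIF/serum the log2 fold change was -0.69 (SE 0.40, adjusted p = 0.289), and the effects in the 2 media were not shown to differ (1.15, SE 0.56, adjusted p = 0.315). The log2 fold change of 2i/LIF over LIF/serum was 1.09 (SE 0.39, adjusted p = 0.0610) in control cells and -0.07 (SE 0.41, adjusted p = 0.924) in Dax1KO cells. An annotated antisense gene, Gm47040, shares 115 exonic bases with Fst; it had 0 to 4 counts per library.

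Skil (ENSMUSG00000027660.16, chr3:31095058-31122577, plus strand) encodes a co-repressor that binds Smad proteins and is itself a target of the signal. Its normalized counts were 702 and 729 in control cells in 2i/LIF, 794 and 663 in Dax1KO cells in 2i/LIF, 1978 and 1512 in control cells in LIF/serum, and 787 and 1132 in Dax1KO cells in LIF/serum. Control cells in LIF/serum stood above all the other libraries. In LIF/serum Skil was 1.82-fold lower in Dax1KO cells (log2 fold change -0.86, SE 0.21, adjusted p = 0.0337), whereas in 2i/LIF the log2 fold change was 0.03, with a 95% interval from -0.47 to 0.52. The call in LIF/serum was lost in 5 of 8 fits with one library left out, with the smallest change without replicate 1 of the Dax1KO libraries (-0.62, adjusted p = 0.142) and the next without replicate 1 of the control libraries (-0.68, adjusted p = 0.117), and it was lost with the LIF/serum groups fitted alone (-0.88, adjusted p = 0.0654) and without a filter on low counts (-0.85, adjusted p = 0.0820). Without either replicate of the Dax1KO libraries in 2i/LIF, or without replicate 1 of the control libraries in 2i/LIF, the estimate stayed at -0.86 with adjusted p-values from 0.0515 to 0.0554. The interaction was -0.89 (SE 0.30) and was not called (adjusted p = 0.160). Control cells had 2.44-fold less Skil in 2i/LIF than in LIF/serum (log2 fold change -1.29, SE 0.22, adjusted p = 0.00263), and in Dax1KO cells this contrast was -0.40 (SE 0.21, adjusted p = 0.205).

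**Figure D2:**
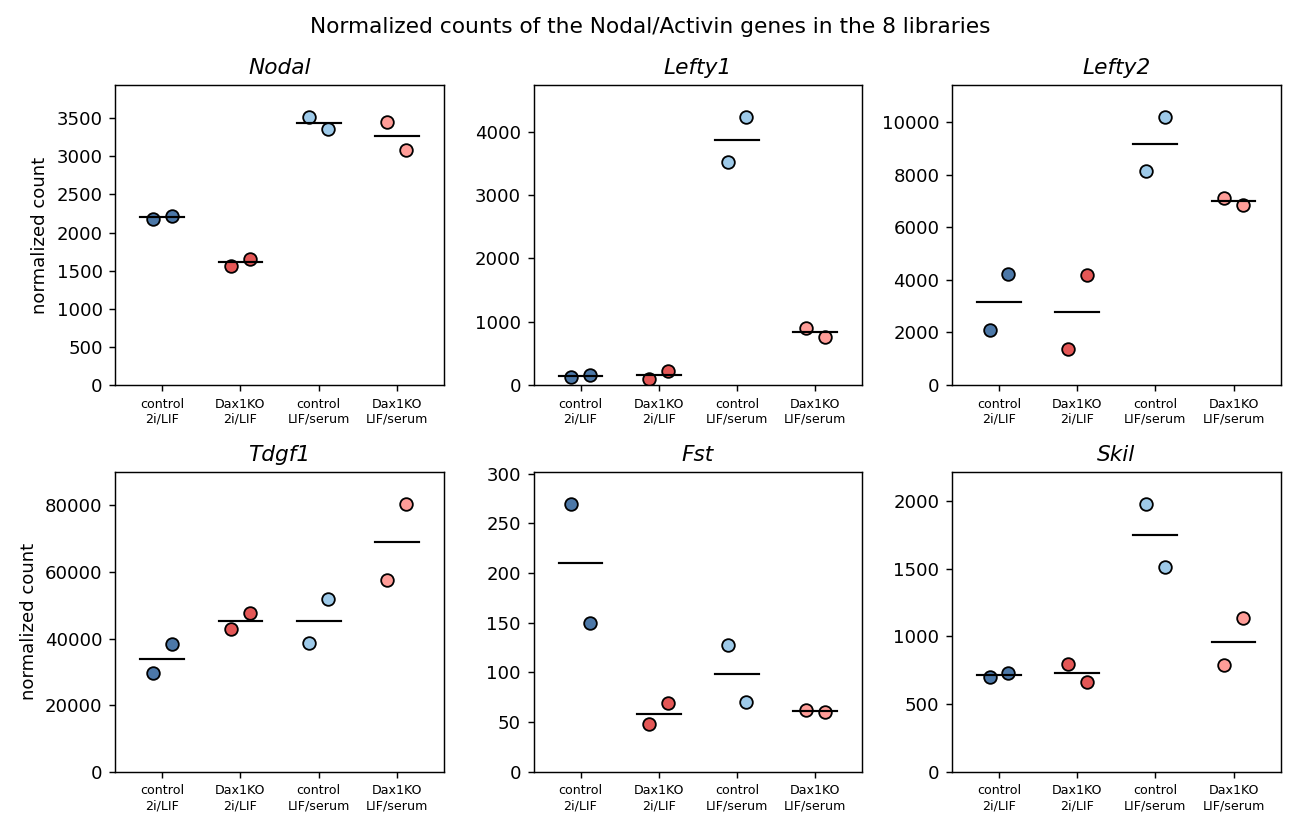
Each panel is a gene, each point the normalized count of a library on a linear axis from 0, and each bar the mean of the 2 libraries of a group; Cer1 was at 0 throughout. Lefty1 and Skil are highest in control cells in LIF/serum, Tdgf1 is highest in Dax1KO cells in LIF/serum, and Fst is highest in control cells in 2i/LIF.

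Counted over the 6 genes tested, Dax1KO changed none in 2i/LIF by edgeR's quasi-likelihood test, where 3.16% of all genes were called, 1.51% higher and 1.65% lower. At an unadjusted p under 0.05 there were 2, Nodal and Fst, both lower, beside 17.9% of all genes, and DESeq2 called the same pair, beside 7.94% of the genes for which it gave an adjusted p. In LIF/serum 2 of 6 were called, Lefty1 and Skil, both lower, against 14.7% of all genes called, 8.87% higher and 5.78% lower, and DESeq2 added Tdgf1, against 19.7% called. The interaction called 1 of 6, Lefty1, against 2.87% of all genes, 2.05% with a positive and 0.824% with a negative difference. The median log2 fold change of the 6 genes was -0.08 in 2i/LIF and -0.54 in LIF/serum, beside medians over all genes tested of -0.01 and 0.01. Between media, 4 of 6 were lower in 2i/LIF in control cells (Nodal, Lefty1, Lefty2 and Skil), where 36.8% of all genes were called, 20.3% higher and 16.5% lower. In Dax1KO cells 2 of 6 were lower in 2i/LIF (Nodal and Lefty1), where 28.9% of all genes were called, 15.2% higher and 13.7% lower, and DESeq2 called 3, against 30.9% called. The comparisons of media share their libraries with the comparisons of genotypes, so these counts are not independent of each other. With so few genes, the counts describe the genes named and no more.

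**Figure D3:**
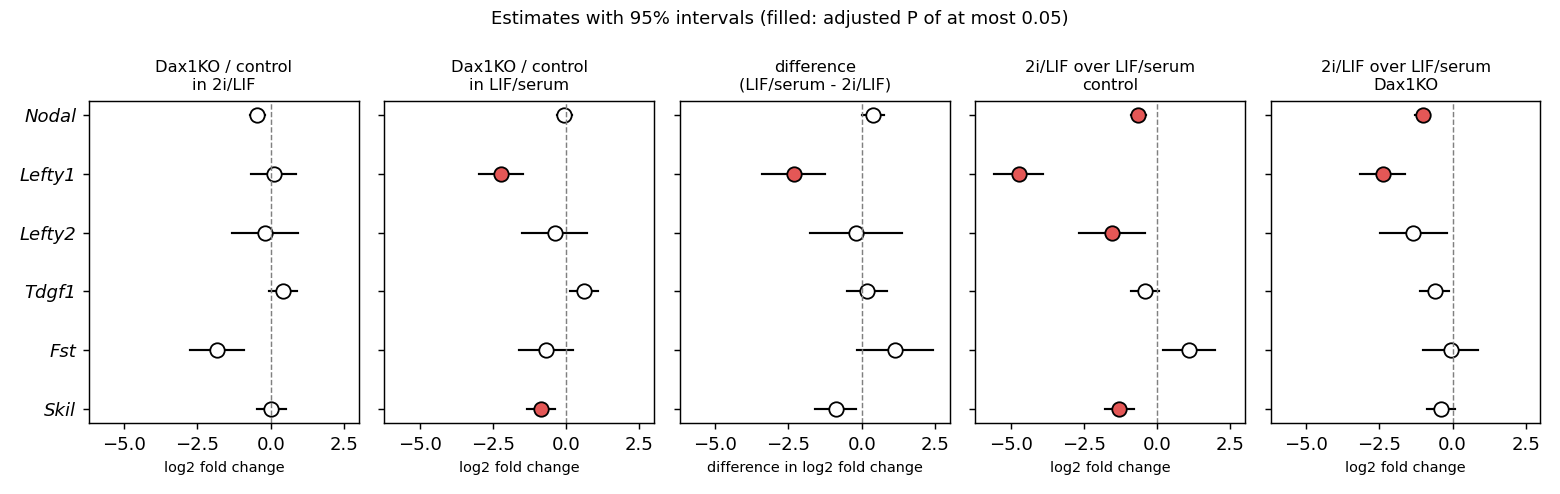
Points are log2 fold changes of the 6 tested genes in the 5 contrasts (in the middle panel the difference between the effects of Dax1KO in LIF/serum and 2i/LIF), bars are 95% intervals, and filled points are called. Lefty1 is filled in all panels but that of Dax1KO over control in 2i/LIF, where its interval runs from -0.67 to 0.88.

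In LIF/serum the lower Lefty1 and Skil of Dax1KO cells came with higher primitive endoderm markers. Of 8 such markers (Gata6, Gata4, Sox17, Sox7, Pdgfra, Dab2, Lamb1 and Col4a1), 6 were called higher in Dax1KO cells in LIF/serum. None was at 0 in both libraries of any group. Over all genes 14.7% were called in this contrast, 8.87% higher and 5.78% lower. Gata4, a transcription factor of the primitive endoderm, was at 2069 to 2352 normalized counts in Dax1KO cells and at 736 to 893 in control cells. The summed normalized count of 6 trophectoderm markers was 2327 and 2380 in control cells and 3505 and 4229 in Dax1KO cells, with 2 of 6 called higher (Krt18 and Hand1). Of the 8 markers of undifferentiated ESCs, edgeR called Klf4 higher and none lower. At an unadjusted p under 0.05 there were 3 higher and 2 lower, beside 30.7% of all genes. DESeq2 called 1 higher and 1 lower, beside 19.7% of the genes for which it gave an adjusted p. Of 7 fibroblast markers 2 were called higher, Thy1 and Col1a1, while Dcn and Col3a1 were at 0 in both Dax1KO libraries in LIF/serum, as were Lum and Postn. In 2i/LIF, where Nodal and Fst stood lower in Dax1KO cells without a call, 1.51% of all genes were called higher and 1.65% lower. The summed trophectoderm markers lay there between 1078 and 1486 in control and between 2690 and 2944 in Dax1KO cells. Krt8 and Krt18 held most of these sums and were the 2 of 6 called higher. Elf5 had a log2 fold change of 1.51 without a call, and Gata3 (-1.44) and Hand1 (-0.69) were lower without a call. Cdx2 had a count of 0 in all 2i/LIF libraries. The summed fibroblast markers lay between 1873 and 2363 in control and between 1263 and 1348 in Dax1KO cells. Thy1, the only one of them called lower, held most of the sum. The other 4 tested had log2 fold changes above 0 without a call (Col1a1 0.05, Col1a2 1.60, Lum 1.37 and Postn 1.35). Of the 8 primitive endoderm markers, Dab2 was called higher by edgeR. Yet 5 of the 8 had log2 fold changes below 0, among them Gata6 (-1.13) and Lamb1 (-0.61), and 3 above 0. DESeq2 called 1 higher and 2 lower, beside 7.94% of its genes. The sum of these 8 lay between 4701 and 5238 in control and between 3514 and 4680 in Dax1KO cells. None of the 8 markers of undifferentiated ESCs was called in 2i/LIF by edgeR. At an unadjusted p under 0.05 there were 1 higher (Tfcp2l1) and 3 lower (Pou5f1, Sox2 and Zfp42), beside 17.9% of all genes. DESeq2 called 1 higher and 3 lower, beside 7.94% of the genes for which it gave an adjusted p. The part of all these markers in the differences of Lefty1, Skil, Nodal and Fst was not tested.

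A list of 47 further pathway genes, by role, was examined in the same fit, and 44 of them passed the filter. In 2i/LIF Dax1KO changed none of the 44 by edgeR's quasi-likelihood test, where 3.16% of all genes were called. At an unadjusted p under 0.05 there were 12, beside 17.9% of all genes, and DESeq2 called 5 of the 44, beside 7.94% of the genes for which it gave an adjusted p. In LIF/serum 5 of 44 were called, 4 higher and 1 lower, which is no larger a share than the 14.7% of all genes called. DESeq2 called 9, beside 19.7%, and 12 had an unadjusted p under 0.05, beside 30.7%. The median log2 fold change of the 44 was 0.09. Among the ligands, Gdf3, which acts with Nodal through Tdgf1, was lower, at 4012 ± 80.6 normalized counts in Dax1KO against 5876 ± 140 in control cells (SD, n = 2; log2 fold change -0.55, SE 0.11, adjusted p = 0.0183). This call was lost without replicate 2 of the control libraries (adjusted p = 0.0595) and without either Dax1KO library of LIF/serum (adjusted p = 0.0830 and 0.0890). Gdf3 lies on chromosome 6. The median log2 fold change over that chromosome was 0.52 in this contrast, the opposite direction to Gdf3, and no gene of the main 7 lies there. For Dax1KO over control in 2i/LIF that median was 0.44, and between media it was 0.06 in control and 0.05 in Dax1KO cells. Dax1KO cells thus differed from control cells over this chromosome in both media. The part of such a difference between the lines in the other contrasts of genotypes was not tested. Inhbb, which encodes the subunit of Activin B, stood at 2948 ± 394 and 2907 ± 8.58 normalized counts in Dax1KO and control cells in LIF/serum. In 2i/LIF it stood at 456 ± 15.4 and 737 ± 159 (log2 fold change -0.69, SE 0.17, adjusted p = 0.0758). Inhba, which encodes the subunit of Activin A, had a count of 0 in all 8 libraries.

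On the receiving side, Acvr1b (ALK4), the type I receptor of Nodal and Activin, was 1.75-fold higher in Dax1KO cells in LIF/serum, at 2116 ± 77.6 against 1206 ± 45.7 normalized counts (log2 fold change 0.81, SE 0.11, adjusted p = 0.0052). Pcsk6 (PACE4), a convertase that cleaves the Nodal precursor, was 1.88-fold higher, at 4187 ± 93.9 against 2230 ± 112 (log2 fold change 0.91, SE 0.11, adjusted p = 0.00369). In 2i/LIF Pcsk6 was at 3909 ± 347 and 3836 ± 5.34 in Dax1KO and control cells. The effect of Dax1KO on Pcsk6 differed between media (0.88, SE 0.16, adjusted p = 0.0342), the only such call by edgeR among the 44 genes, where 8 had an unadjusted p under 0.05 (19.1% of all genes) and DESeq2 called 3 (8.42% of its genes), and it was lost without a filter on low counts (adjusted p = 0.0658) and in each of the 8 fits with a library left out (adjusted p from 0.0535 to 0.138). Furin, the other convertase tested, had a log2 fold change of 0.63 in LIF/serum (SE 0.20, adjusted p = 0.0707) and was called higher by DESeq2. Of the 6 Smads and nuclear partners none was called in LIF/serum by edgeR, with 2 at an unadjusted p under 0.05, and DESeq2 called 2.

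Among the inhibitors other than the main 7, Fstl3, a follistatin-like binder of Activin, was higher in Dax1KO cells in LIF/serum, at 372 and 741 counts against 128 and 166 (log2 fold change 1.78, SE 0.42, adjusted p = 0.0294). In 2i/LIF it had 588 and 633 counts against 166 and 352 (adjusted p = 0.175). The call in LIF/serum was lost without a filter on low counts (adjusted p = 0.0797) and in 5 of 8 fits with a library left out, and the estimate fell to 1.19 (adjusted p = 0.155) without replicate 2 of the Dax1KO libraries in LIF/serum. A share of 59.2% of its transcript matches Prss57 at 95% identity or more, so this gene is uncertain. Of the 10 intracellular inhibitors other than Skil, none was called in LIF/serum by edgeR or by DESeq2, with 2 at an unadjusted p under 0.05, both higher. Smad7, which blocks the receptors and is induced by the signal, stood at 2799 ± 718 against 2119 ± 165 normalized counts. Of 10 mesendoderm response genes 1 was called, Eomes, a T-box factor, which was higher at 624 ± 82.2 against 302 ± 62.9 (log2 fold change 1.05, SE 0.20, adjusted p = 0.0156). The call of Eomes was lost without replicate 1 of the control libraries (adjusted p = 0.0644) and without replicate 2 of the Dax1KO libraries in LIF/serum (adjusted p = 0.0917). The 5 genes called outside the main 7 thus sit in different roles and do not share a direction.

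**Figure D4:**
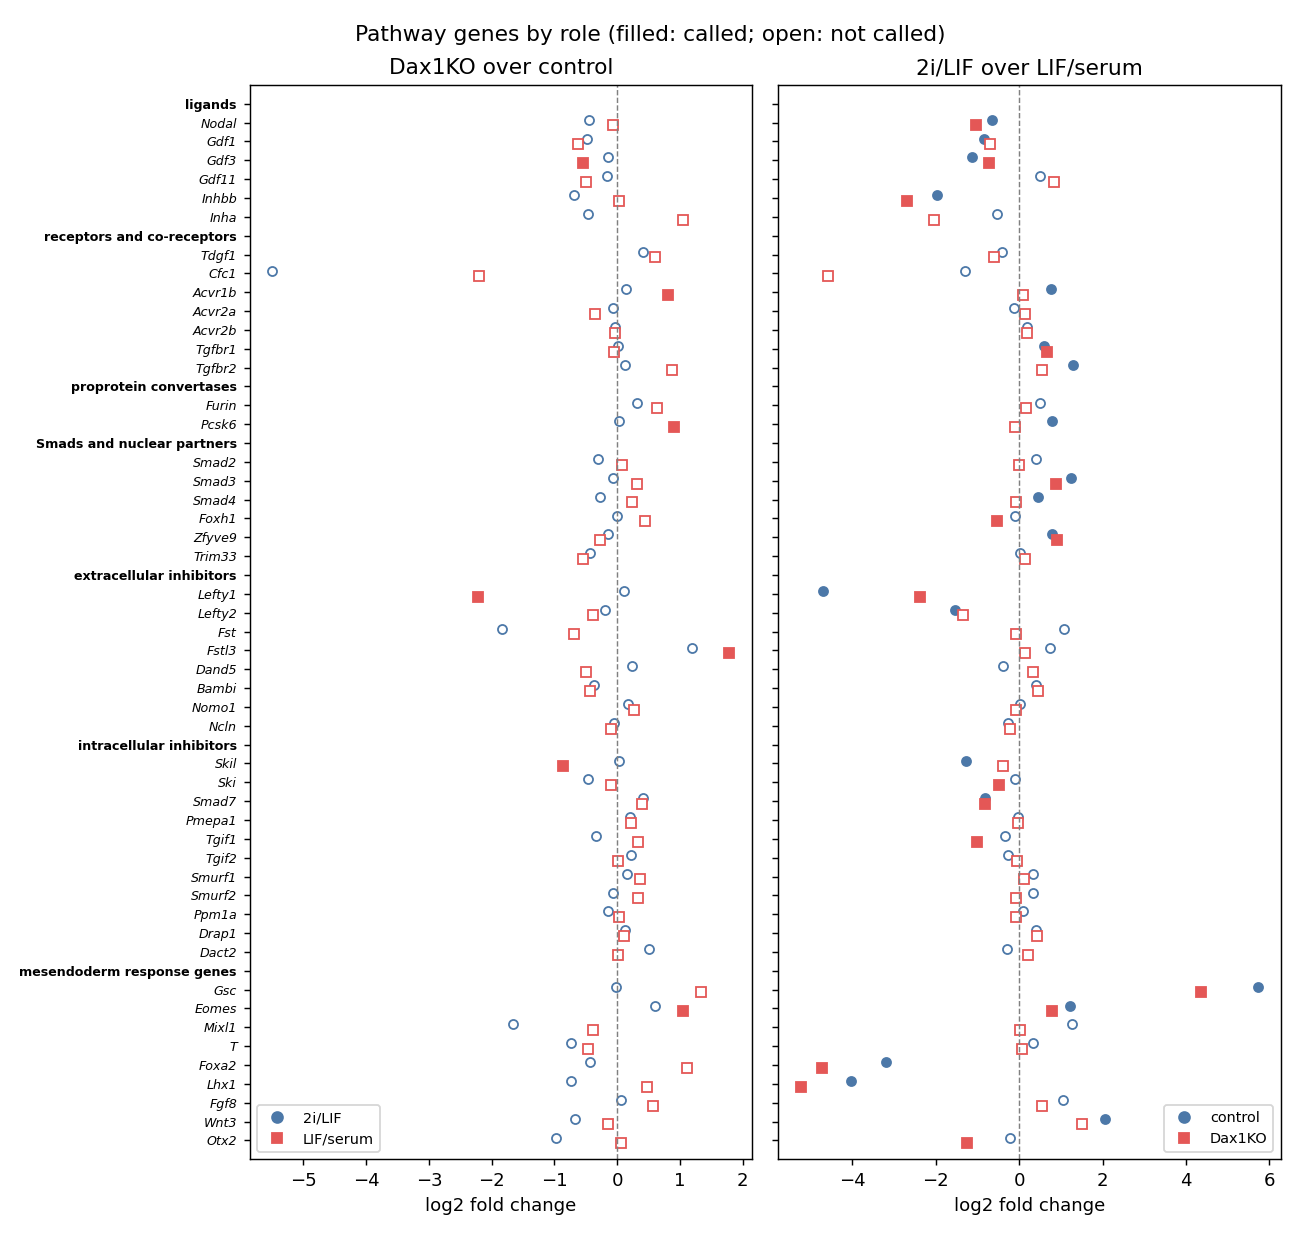
Rows are tested pathway genes grouped by role, the x axes are log2 fold changes, and filled symbols are called. In the left panel (Dax1KO over control) filled symbols occur for LIF/serum, from Lefty1 at -2.22 to Fstl3 at 1.78. In the right panel (2i/LIF over LIF/serum) they occur in both genotypes, with Gsc at 5.72 on the far right.

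Between media in control cells, 17 of the 44 further genes were called, 10 higher and 7 lower in 2i/LIF, a share close to the 36.8% of all genes called (20.3% higher and 16.5% lower). The ligands Gdf3 (log2 fold change -1.13), Inhbb (-1.98) and Gdf1 (-0.84) were lower, as Nodal was, and no ligand was called higher. The whole Gdf1 transcript is also annotated to Cers1, so that gene is uncertain. The receptors Acvr1b (0.77), Tgfbr1 (0.60) and Tgfbr2 (1.30), the convertase Pcsk6 (0.78) and the signal transducers Smad3 (1.25), Smad4 (0.45) and Zfyve9 (0.79), which presents Smads to the receptors, were higher in 2i/LIF. Smad7 (-0.82) was lower. The mesendoderm genes split, with Gsc, Eomes and Wnt3 among those higher and Foxa2 and Lhx1 among those lower in 2i/LIF. Gsc (goosecoid), a homeobox gene of the organiser, had counts of 441 and 469 in control cells in 2i/LIF and 0 and 16 in LIF/serum (log2 fold change 5.72, SE 0.75, adjusted p = 0.000855). Without replicate 1 of the control libraries in LIF/serum its estimate was 4.69, and without replicate 2 the only count left there is 0. Lhx1 had counts of 5 and 0 in control cells in 2i/LIF and 48 and 33 in LIF/serum. With a library left out, the calls of Gdf1, Tgfbr1, Tgfbr2, Smad4 and Wnt3 were lost in 7, 5, 6, 3 and 3 of 8 fits, in each case also without replicate 2 of the control libraries in LIF/serum (adjusted p = 0.240, 0.174, 0.172, 0.0723 and 0.0670). Gdf1, Tgfbr1 and Tgfbr2 were also lost without a filter on low counts (adjusted p = 0.0980, 0.0765 and 0.0887), and Gdf1, Tgfbr1 and Smad4 with the control groups fitted alone (adjusted p = 0.0737, 0.0687 and 0.0599).

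In Dax1KO cells, 15 of the 44 genes were called between media, 5 higher and 10 lower in 2i/LIF, beside 28.9% of all genes called (15.2% higher and 13.7% lower). Inhbb (-2.69, SE 0.18, adjusted p = 5.52e-05) and Gdf3 (-0.73) were again lower. Tgfbr1, Smad3, Zfyve9, Gsc and Eomes were higher, and Foxh1, Ski, Smad7, Tgif1, Foxa2, Lhx1 and Otx2 were among those lower. With a library left out, the calls of Tgfbr1, Smad3, Foxh1, Ski, Smad7 and Eomes were lost in 4, 2, 4, 4, 3 and 3 of 8 fits, in each case also without replicate 2 of the Dax1KO libraries in 2i/LIF (adjusted p = 0.110, 0.0787, 0.0938, 0.0984, 0.0704 and 0.0839). Tgfbr1, Ski and Eomes were also lost without a filter on low counts (adjusted p = 0.0715, 0.0686 and 0.0501). Pcsk6 had a log2 fold change of -0.10 and Acvr1b one of 0.09 here, against 0.78 and 0.77 in control cells. The difference between genotypes in these contrasts is the interaction given above, called for Pcsk6 and not for Acvr1b (0.67, SE 0.16, adjusted p = 0.0697).

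Across the 8 libraries, the log2 levels of Nodal, Lefty1 and Lefty2 varied together, with a Pearson r of 0.870 for Nodal and Lefty1, 0.850 for Nodal and Lefty2 and 0.891 for Lefty1 and Lefty2. Skil followed Lefty1 (0.881), and Tdgf1 ran opposite to Fst (-0.754). The 8 points are 4 pairs from 4 groups, so these values describe the order of the groups and carry no test. Among 13315 genes with a mean count of at least 100, those closest to Lefty1 in this sense were Hmgn2 (0.989), Smtnl1 (0.988) and Srm (0.988). The closest to Nodal were Gm12800 (0.996), Slc20a2 (0.994) and Gpa33 (0.993), and to Skil Cenpq (0.989), Pdlim7 (0.982) and 9530027J09Rik (0.982). For Tdgf1 they were Cdkn1b (0.988), Gng2 (0.988) and Pgm1 (0.987), for Lefty2 5730409E04Rik (0.980), Gm45444 (0.967) and Map7 (0.967), and for Fst Tsr2 (0.947), Slc22a17 (0.938) and Mme (0.938). None of the 7 genes was among the closest 3 of another.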

How the data were processed

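Messenger RNA was measured in 8 libraries, 2 for each genotype (control, Dax1KO) in each medium (2i/LIF, LIF/serum). The values deposited by the authors are raw counts of each gene, without normalization. The submitters' processing notes name HISAT2 2.0.4, mm10 and DESeq2, and the counting tool and its use of strand are not given in the sources used here. Of 52550 genes, 52403 were matched to GENCODE M21 (GRCm38) for symbols and coordinates. Total counts were 35911384 to 37286251; low counts piled up at 3, so low counts may not be independent fragments, and the floor of 3 counts covers counting error only.

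The test was run in edgeR 4.0.16 under R 4.3.3 (filterByExpr, TMM factors of 0.960 to 1.04, 1 quasi-likelihood fit with a mean per group, Benjamini-Hochberg adjustment over 20749 genes). Intervals are t intervals on 8.04 degrees of freedom. Normalized counts use a mean scaled library of 36741757. Transcripts were aligned with blastn 2.17.0 at 95% identity. Promoters are from RefSeq (GRCm38.p6). The steps were tested on simulated data. The members and gene lists were chosen with earlier results of these data known. Named were the 7 genes, the listed pathway genes called in a comparison (except 1, counted in the lists but not reported here by name), the 3 genes of highest r with each, and, chosen after their values were seen, Inhba, Inhbb, Smad7, Furin and single markers. Alternatives were DESeq2 1.42.0, RLE factors, no filter, a filter of 10 counts in every library, a separate fit of the groups compared, a replicate block, counts divided by 3, and each library left out. They were planned with those earlier results known.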

Additional observations from a re-analysis of the deposited data

Results flagged for a closer look

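The effect of Dax1KO differed between media for 2 of the 50 pathway genes tested, by the test of the interaction in edgeR with Benjamini-Hochberg adjustment over all genes, where 2.87% of all genes were called. For Lefty1 the log2 fold change of Dax1KO over control was lower by 2.32 in LIF/serum than in 2i/LIF, a difference of -2.32 (SE 0.46, adjusted p = 0.0422), which was lost without a filter on low counts and in 7 of 8 fits with a library left out. Both Dax1KO libraries were below both control libraries in LIF/serum, and the 2 control values lay between the 2 Dax1KO values in 2i/LIF. For Pcsk6 the difference was 0.88 (SE 0.16, adjusted p = 0.0342), with both Dax1KO libraries above both control libraries in LIF/serum, and it was lost without a filter and in all 8 fits with a library left out.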

How the results depend on the processing

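With 2 libraries in a group, the counts of calls moved widely, and the cause was not tested. Of the 6 genes tested, Dax1KO in 2i/LIF changed 0, but 2 with DESeq2, 1 with at least 10 counts in every library (Fst, adjusted p = 0.0344), 1 with counts divided by 3 (Fst, adjusted p = 0.0452) and 0 to 1 with a library left out. In LIF/serum the 2 called genes became 1 without a filter on low counts (Skil lost, adjusted p = 0.0820) and 1 in a separate fit of the groups compared, 3 with DESeq2 (Tdgf1 added, adjusted p = 0.0336), and 1 to 2 with a library left out. The 1 interaction called became 0 without a filter and 0 to 1 with a library left out. Between media, 3 to 5 were called in control cells and 2 to 3 in Dax1KO cells with a library left out, and DESeq2 called 3 in Dax1KO cells. Over all genes, the 656 calls in 2i/LIF became 1455 with DESeq2, 121 without a filter and 39 to 715 with a library left out. The 3041 calls in LIF/serum became 1842 without a filter, 1743 in a separate fit and 770 to 2647. The 596 interaction calls became 1510 with DESeq2, 119 without a filter and 41 to 341. Between media the ranges were 5264 to 7233 in control cells and 3092 to 6422 in Dax1KO cells. No filter adds genes of low count to the adjustment, and a library left out leaves its group with 1, whose spread was taken to be that of the other groups.

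The replicate numbers are shared by the groups, but nothing says that they pair the libraries, and same-numbered libraries deviated together weakly (r from -0.015 to 0.108 over 20749 genes). With the replicate number as a block, 573, 3218, 552, 7754 and 6075 genes were called in the 5 comparisons in the order above, of which 502, 2832, 477, 7321 and 5690 were also called without it. Of the 6 genes, the block gave 4 calls between media in Dax1KO cells in place of 2, adding Lefty2 (adjusted p = 0.0233) and Tdgf1 (adjusted p = 0.00795). It also added Tdgf1 in LIF/serum (adjusted p = 0.0155) and between media in control cells (adjusted p = 0.0225), and it lost Gdf1 between media in control cells (adjusted p = 0.0654). It changed no other call of the 6 genes and lost no other call of the further pathway genes. Of the alternatives, markers were examined only with DESeq2.

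Directions turned with a library left out, and in no other alternative, where nothing had been called. The log2 fold changes of Dax1KO over control in 2i/LIF ran from -0.59 to 0.57 for Lefty1, from -1.22 to 0.42 for Lefty2 and from -0.11 to 0.15 for Skil. That of Nodal in LIF/serum ran from -0.15 to 0.0088. The interactions ran from -0.83 to 0.83 for Lefty2 and from -0.068 to 0.42 for Tdgf1. The contrast of media in Dax1KO cells ran from -0.36 to 0.18 for Fst. The counts of Fst, and of Lefty1 in 2i/LIF, were at most 269 and limit what could be detected there.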
